A study of Mus musculus with 12 samples.

Results

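Complement proteins and major histocompatibility complex (MHC) class I molecules are the subject here: 9 genes of the immune system, chosen by their symbols in the count table and followed over the 4 groups of a mouse tau seeding experiment. They are the complement genes C1qa, C1qb, C1qc, C3 and C4b and the MHC class I genes B2m, H2-D1, H2-K1 and Tap1, 9 of the 24985 genes counted, and all 9 passed the filter on low counts. RNA from the dorsal hippocampus of 12 C57Bl6/J wild-type mice was sequenced in bulk, 3 mice per group. Mice were injected on 1 side, at 6 months of age, with PBS or with 1 µg of AD tau, pathological tau purified from the cortex of people with Alzheimer's disease, and were then kept on control chow or on chow with 5% sodium acetate. Each group is named by its injection and its diet, so that Tau acetate stands for AD tau and the acetate chow. The study asked how acetate supply and pathological tau act together, with memory as its outcome. The control chow is labelled as TestDiet and the acetate chow as LabDiet with sodium acetate. The paper names TestDiet as the manufacturer and calls the control diet equivalent in calories. Any difference between the base chows cannot be told apart from acetate. The tau is human material seeded into wild-type mice, which carry no tau transgene, and the tissue was taken from the injected side 6 months later. All groups had also been through a fear memory test shortly before the tissue was taken.

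Complement is a cascade of plasma and tissue proteins. In the classical pathway the C1q complex, built of the A, B and C chains that C1qa, C1qb and C1qc encode, binds a target and leads to cleavage of C4 and then of C3, whose fragments tag the target for uptake through complement receptors on microglia. In the developing and the diseased hippocampus this pathway is known for the removal of synapses, and microglia are the main source of C1q in the brain. MHC class I molecules consist of a heavy chain, here H2-D1 or H2-K1, and the shared light chain beta-2 microglobulin, encoded by B2m, and show peptides at the cell surface. Tap1 encodes a subunit of the transporter that carries those peptides into the endoplasmic reticulum.

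The 3 C1q genes lie side by side on the minus strand of mouse chromosome 4 in GRCm38, with C1qb at chr4:136880129-136886187, C1qc at chr4:136889804-136893065 and C1qa at chr4:136895917-136898803. B2m is at chr2:122147686-122153083 on the plus strand. The other 5 genes are on chromosome 17. H2-K1 is at chr17:33996017-34000347 on the minus strand, Tap1 at chr17:34187553-34197225 on the plus strand, C4b at chr17:34728380-34743882 on the minus strand and H2-D1 at chr17:35262730-35267499 on the plus strand, all in the MHC region, and C3 is at chr17:57203970-57228136 on the minus strand. All 9 are protein-coding in GENCODE M21, and values are counts over the exons of each gene. Some exons are shared in sequence with other genes. Of all 50-base windows of the C4b transcript, 35.2% also occur in C4a, its neighbouring copy, and the corresponding shares were 14.3% for H2-D1, mainly with H2-Q genes, and 8.79% for H2-K1, with H2-D1, H2-Q1 and H2-T23 among others. Reads from those stretches could have been left uncounted, so the levels of C4b, H2-D1 and H2-K1 are uncertain in this respect. For Tap1 the share was 0.861%, with Tap2, and no such window was found for C1qa, C1qb, C1qc, C3 or B2m.

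The bases before the start of 2 MHC class I genes and a short stretch of the third are shown because B2m, H2-D1 and H2-K1 varied together over the mice, as described further on. They come from the RefSeq promoter table of GRCm38.p6, in which 7 of the 9 genes were matched, and C1qa and C4b were not. Capitals mark matches, on either strand, to 4 motifs known from MHC class I promoters, none of which overlap here: the interferon-stimulated response element GAAANNGAAA, the kappa B site GGGATTCCC, the CRE core TGACG and the CCAAT box CCAAT. The B2m stretch is chr2:122147507-122147686 on the plus strand, and the H2-K1 stretch is chr17:34000348-34000527 on the minus strand, each 180 bases ending at the base before the start. The H2-D1 stretch is chr17:35262914-35262943, bases -180 to -151 from the RefSeq start, and also lies in the first exon of 1 GENCODE transcript.
B2m: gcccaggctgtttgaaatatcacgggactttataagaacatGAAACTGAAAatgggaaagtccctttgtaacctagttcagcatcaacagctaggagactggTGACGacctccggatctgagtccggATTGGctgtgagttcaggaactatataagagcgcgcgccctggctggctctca
H2-K1: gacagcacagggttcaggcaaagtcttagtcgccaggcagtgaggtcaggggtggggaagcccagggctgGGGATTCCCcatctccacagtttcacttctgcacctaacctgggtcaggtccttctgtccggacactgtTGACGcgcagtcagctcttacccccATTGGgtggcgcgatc
H2-D1: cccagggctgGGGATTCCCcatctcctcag
Over 250 bases before the start, the kappa B letters were found in H2-D1 and H2-K1 and in 0.301% of all 32851 promoters of the table. The response element was found in B2m and in 2.98% of all promoters. The CRE core was found in B2m, H2-D1, H2-K1, Tap1 and C1qb and in 17.8% of all promoters, and the CCAAT box in B2m, H2-D1, H2-K1 and Tap1 and in 33.8% of all promoters. The H2-D1 and H2-K1 windows share an unbroken run of 47 bases. The full promoter entries of Tap1 and Psmb9, which are longer than the 250 bases searched, share 275 bases. Psmb9 is an immunoproteasome gene transcribed in the opposite direction. These matches describe letters only. Variants of the 4 motifs were not searched, so a lower-case stretch or a gene not listed is not shown to lack such a site.

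The gene counts of a library summed to between 12983233 and 20218340, and Tau acetate mouse 1 had the deepest library. The mice are labelled male, but Xist, which is transcribed from an inactive X, had reads in every library and 8 Y-linked genes had 0, so the 12 libraries went against the sex label. Markers of CA1, CA3 and dentate granule neurons were present in every library, with summed levels of 446 to 927, 113 to 284 and 347 to 581 CPM (read counts scaled to a common library size). Of the 4 T cell markers counted, none passed the filter on low counts. Of 5 blood genes, the haemoglobin genes Hbb-bs and Hba-a1 were at 0 in all libraries, and S100a8 and S100a9 were too low to test. Alas2, another of them, was at 2.14 to 5.31 CPM. Why the haemoglobin genes had no reads was not tested, so their 0 does not show that blood was absent. Tau acetate mouse 1 stood apart in most of the 9 genes, and where leaving it out moved a fold change by over 1.5 times the value without it is given too. The 12 libraries are labelled as separate mice, harvested on 1 day and processed together.

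Levels below are CPM after TMM normalization, and a gene was called changed at a Benjamini-Hochberg adjusted p below 0.1 over the 14742 genes tested by edgeR's quasi-likelihood test. Per kilobase of exon, B2m was the most abundant of the 9, with a mean over 12 mice of 83.5 CPM per kilobase. C1qa and C1qb followed at 41.2 and 40.1, C1qc at 20.6, C4b at 15.9, H2-K1 at 10.0, and H2-D1 at 3.80 CPM per kilobase. Tap1, between 0.431 and 1.79 over the mice, and C3, with a mean of 0.793 CPM per kilobase, were the lowest. The ranges over mice of these per-length levels overlapped between C1qa and C1qb, between C1qc and C4b, between C4b and H2-K1 and between Tap1 and C3, so the order of those neighbours is not fixed. The length used was that of all annotated exons of a gene together. For C1qc it was 1931 bases, against 1203 in the longest coding transcript. The same lengths were 2938 and 1619 for H2-K1, 2579 and 2102 for H2-D1 and 5476 and 2953 for Tap1. Levels and order of these genes thus depend on the length chosen. Over the 12 mice the highest CPM was 1.42 times the lowest for B2m and 1.43 times for C1qc, against 4.16 times for Tap1 and 16.1 times for C3. C3 rested on the fewest reads, 12 to 171 per mouse, and C4b reached 3065.

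**Figure D1:**
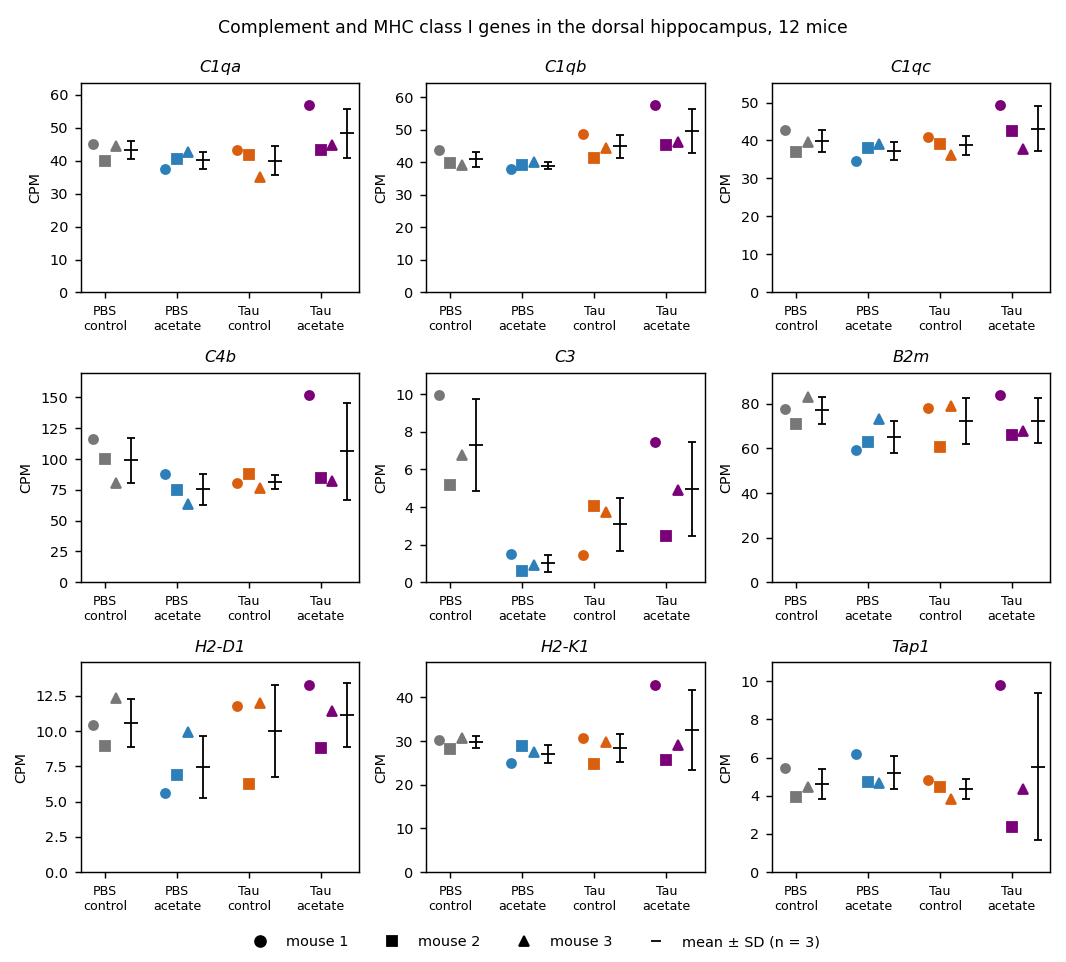
Level of each gene in CPM (vertical axes, from 0) in the 4 groups. Points are mice, with 1 symbol per replicate number, and the bar beside them is the mean ± SD of 3 mice. C3 sits at or below 1.49 CPM in PBS acetate mice and at or above 5.17 in PBS control mice, and the circle of Tau acetate mouse 1 is the highest point of 12 in all panels except C3.

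C3, the component on which all complement pathways meet, was the gene of the 9 that changed. In PBS-injected mice it was lower on the acetate diet. PBS control mice had 9.95, 5.17 and 6.77 CPM, and PBS acetate mice had 1.49, 0.619 and 0.894 CPM, with no overlap. In raw reads these were 171, 67 and 100 against 23, 12 and 14. C3 fell by 2.90 on the log2 scale (SE 0.53, 95% CI -4.07 to -1.74), to 0.134 of the control level, with an adjusted p of 0.0236 by edgeR and 9.09e-05 by DESeq2. Without PBS acetate mouse 2 the difference was -2.62 with an adjusted p of 0.148 by edgeR, so the call did not hold in that fit. Over all genes that fit called 15, against 1303 with all 12 mice. Why the call was lost was not tested. Fewer cells that express a gene and less of its RNA per cell cannot be told apart in bulk tissue.

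In tau-injected mice C3 had another order. Tau control mice had 1.44, 4.05 and 3.74 CPM and Tau acetate mice had 7.48, 2.48 and 4.88 CPM. These 2 groups overlapped, and the log2 difference of 0.70 (SE 0.46, 95% CI -0.33 to 1.72) had an adjusted p of 0.636 by edgeR, and was 0.26 without Tau acetate mouse 1. The difference between both diet effects, the interaction, was 3.60 on the log2 scale (SE 0.70, 95% CI 2.04 to 5.16) with an adjusted p of 0.0634 by edgeR and 0.00165 by DESeq2. The interaction did not pass the threshold without PBS acetate mouse 2 (3.32, adjusted p = 0.180 by edgeR), PBS acetate mouse 3 (3.55, adjusted p = 0.113), Tau control mouse 2 (3.86, adjusted p = 0.112) or Tau acetate mouse 1 (3.15, adjusted p = 0.131).

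Read by injection, the differences of C3 had opposite signs on the 2 diets. On the control diet the log2 difference of Tau control from PBS control mice was -1.25 (SE 0.45, 95% CI -2.26 to -0.25, adjusted p = 0.415 by edgeR), and no Tau control mouse reached the lowest PBS control mouse. On the acetate diet the difference was 2.35 (SE 0.54, 95% CI 1.16 to 3.54), and every Tau acetate mouse was above every PBS acetate mouse. The second difference had an adjusted p of 0.177 by edgeR and 0.0180 by DESeq2 on all 12 mice, and 1.90 with an adjusted p of 0.305 by edgeR without Tau acetate mouse 1. Averaged over both injections, C3 was at -1.10 on the acetate diet (SE 0.36, adjusted p = 0.136 by edgeR and 0.0625 by DESeq2). It was called lower by edgeR without Tau acetate mouse 1 (-1.32, adjusted p = 0.0596) or without Tau control mouse 1 (-1.27, adjusted p = 0.0699). Of the 4 groups PBS acetate was lowest and PBS control highest in mean, and Tau control and Tau acetate overlapped each other. These comparisons share groups and are not independent.

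Transcripts of other cell types also differed between the groups, in part with the signs of C3. Of 5 choroid plexus markers, Folr1, a folate receptor, and Otx2, a homeodomain factor, were lower in PBS acetate than in PBS control mice, by -1.73 (adjusted p = 0.0746 by edgeR) and -1.81 (adjusted p = 0.0939 by edgeR) on the log2 scale. Folr1 was at 1.98, 1.39 and 1.35 CPM in PBS control mice and at 0.517, 0.516 and 0.383 CPM in PBS acetate mice. Its interaction was 2.92 (adjusted p = 0.0755 by edgeR). The summed level of the 5 markers was 87.7 to 120 CPM in PBS control, 64.5 to 81.6 in PBS acetate, 93.6 to 201 in Tau control and 79.7 to 477 in Tau acetate mice. The highest sum was that of Tau acetate mouse 3, where Ttr, the transthyretin gene, stood at 399 CPM, while the highest C3 of that group was in mouse 1. Kl, another of the markers, was at 0.34 in the same diet comparison (adjusted p = 0.324 by edgeR). For tau on the control diet, where C3 was at -1.25, 3 of the 5 markers were above 0 (median 0.11). Oligodendrocyte markers also differed, with 6869 to 8859 CPM summed over 6 genes in PBS control and 4311 to 5933 in PBS acetate mice, and 1 of the 6, Mobp, called lower. The 6 oligodendrocyte markers had the same signs as C3 in the other 3 pairwise comparisons and the interaction. All 6 were below 0 for tau on the control diet (median -0.63 on the log2 scale), above 0 for tau on the acetate diet (median 0.45) and above 0 for the interaction (median 1.07), where edgeR called 0 of them and DESeq2 called 6. Other sets ran alike. Medians of the 7 tested MHC class II genes were -1.25 for diet in PBS-injected mice, -0.91 and 0.91 for tau on the control and acetate diets, 0.58 for diet in tau-injected mice and 2.07 for the interaction. Single mice stood out here. H2-Aa was at 2.18, 0.786 and 1.09 CPM in Tau acetate and 3.78, 0.927 and 0.677 in PBS control mice, with mouse 1 first. H2-DMa spread less, at 14.6, 13.7 and 11.6 CPM and 13.9, 10.0 and 12.5. The class II medians were not computed without either mouse 1. The 4 CA3 markers had medians of -0.93, -0.43, 0.20 and 0.63, but -0.24 for diet in tau-injected mice, where C3 was above 0. Summed astrocyte markers overlapped, with 1 of 6 called higher and 1 lower, at 1527 to 1618 and 1482 to 1669 CPM, as did the microglia markers at 415 to 428 and 419 to 435 CPM the border macrophage markers at 2.01 to 3.39 and 2.45 to 2.94 CPM, and the meningeal markers at 15.6 to 19.3 and 18.8 to 21.4 CPM. The part of these cell types and gene sets in the difference of C3 was not tested.

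**Figure D2:**
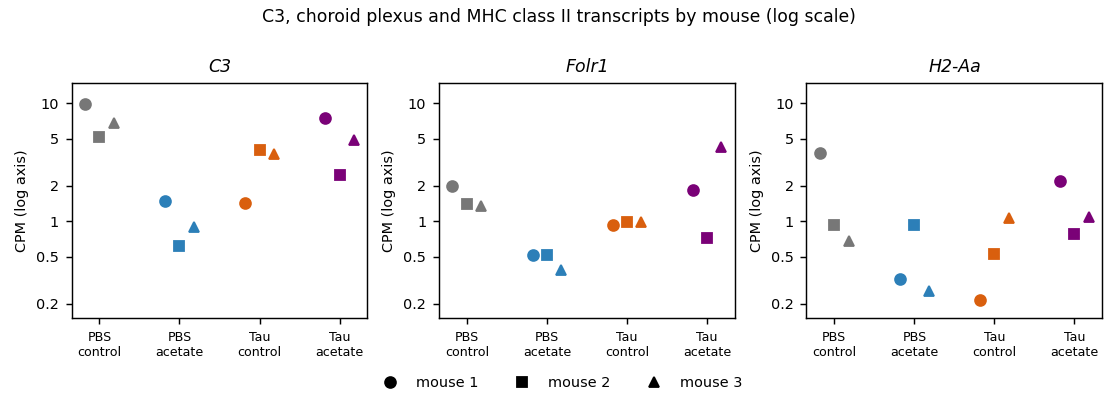
Levels by mouse (log axes, CPM) of C3, of the choroid plexus marker Folr1 and of the MHC class II gene H2-Aa. C3 and Folr1 are both lowest in PBS acetate mice, whereas Folr1 is highest in Tau acetate mouse 3 (4.24 CPM) and H2-Aa in PBS control mouse 1 (3.78 CPM).

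The 3 C1q genes, which start the classical pathway, were at similar levels in CPM, and none was called in any comparison by edgeR. C1qb was at 43.7, 39.9 and 39.3 CPM in PBS control, 37.8, 39.2 and 40.0 in PBS acetate, 48.8, 41.5 and 44.5 in Tau control and 57.6, 45.5 and 46.2 in Tau acetate mice. The last group was above PBS acetate in every mouse. On the acetate diet the log2 difference of tau from PBS was 0.35 for C1qb (SE 0.09, 95% CI 0.17 to 0.54), 1.28-fold, with an adjusted p of 0.168 by edgeR and 0.0524 by DESeq2. Without Tau acetate mouse 1 it was 0.23 with an adjusted p of 0.378 by edgeR, and without Tau acetate mouse 2 it was 0.42 with an adjusted p of 0.0666. On the control diet it was 0.13 (SE 0.09, adjusted p = 0.702 by edgeR), and the interaction was 0.23 (95% CI -0.03 to 0.48, adjusted p = 0.469 by edgeR), or 0.10 without Tau acetate mouse 1, so a difference between diets was not shown.

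C1qa had means ± SD of 43.2 ± 2.79 CPM in PBS control, 40.1 ± 2.59 in PBS acetate, 40.0 ± 4.40 in Tau control and 48.3 ± 7.43 in Tau acetate mice (n = 3 each). Its Tau acetate mice, with 56.8, 43.3 and 44.7 CPM, all lay above its PBS acetate mice, with 37.3, 40.4 and 42.5 CPM. The log2 difference was 0.27 (SE 0.10, adjusted p = 0.361 by edgeR), and 0.14 without Tau acetate mouse 1. C1qc had means of 39.8 ± 2.91, 37.3 ± 2.45, 38.7 ± 2.46 and 43.1 ± 5.81 CPM in the same order of groups, which overlapped throughout. Its difference on the acetate diet was 0.21 (SE 0.09, adjusted p = 0.426 by edgeR), and 0.11 without Tau acetate mouse 1. Microglia markers lay above those of PBS acetate mice in Tau acetate mice too, with sums of 442 to 489 CPM against 419 to 435 over 10 genes, none of them called. Cx3cr1, the fractalkine receptor of microglia, was at 0.23 (adjusted p = 0.190 by edgeR) and P2ry12, a purine receptor that defines homeostatic microglia, at -0.04 (adjusted p = 0.922), or 0.02 without Tau acetate mouse 1. Whether the C1q values moved with the amount of microglial RNA was not tested.

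C4b, the mouse C4 gene cleaved by the C1 complex, was at 116, 99.8 and 80.3 CPM in PBS control, 88.1, 74.6 and 63.4 in PBS acetate, 80.7, 87.7 and 76.5 in Tau control and 152, 84.6 and 82.1 in Tau acetate mice. Every pair of groups overlapped, and the highest value behind the Tau acetate mean of 106 ± 39.6 CPM (SD, n = 3) was that of mouse 1. The log2 difference of tau from PBS on the acetate diet was 0.50 (95% CI -0.08 to 1.08, adjusted p = 0.539 by edgeR), and 0.15 without that mouse. The diet difference in PBS-injected mice was -0.39 (95% CI -0.98 to 0.19, adjusted p = 0.432 by edgeR). C4a, its near copy, was at 0.862 to 2.06 CPM.

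B2m, the light chain, was at 77.5, 71.0 and 83.1 CPM in PBS control, 59.2, 62.8 and 73.1 in PBS acetate, 78.0, 60.5 and 78.9 in Tau control and 84.0, 65.9 and 67.6 in Tau acetate mice. The PBS acetate values were the lowest in mean but overlapped PBS control. The diet difference in PBS-injected mice was -0.25 on the log2 scale (SE 0.12, 95% CI -0.52 to 0.02, adjusted p = 0.274 by edgeR over all 12 mice). Fits to the 6 PBS-injected mice alone called B2m lower, by edgeR among 1537 of 14445 genes called and by DESeq2 among 1229 of 15329. In the other 3 pairwise comparisons B2m differed by between -0.09 and 0.16 on the log2 scale, none called, and the 0.16, for tau on the acetate diet, was 0.04 without Tau acetate mouse 1.

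The heavy chain H2-D1 was at 10.4, 8.96 and 12.3 CPM in PBS control, 5.62, 6.91 and 9.90 in PBS acetate, 11.8, 6.23 and 12.0 in Tau control and 13.3, 8.77 and 11.4 in Tau acetate mice. PBS acetate mice were low in 2 of 3 libraries, as was 1 Tau control mouse, and the groups overlapped. The diet difference in PBS-injected mice was -0.50 (95% CI -1.09 to 0.08, adjusted p = 0.312 by edgeR), and that of tau from PBS on the acetate diet was 0.59 (95% CI 0.01 to 1.16, adjusted p = 0.474). H2-K1, the other classical heavy chain, was at 29.8 ± 1.30 CPM in PBS control, 27.1 ± 2.04 in PBS acetate, 28.5 ± 3.25 in Tau control and 32.6 ± 9.09 in Tau acetate mice (SD, n = 3 each). Its Tau acetate mice had 42.9, 25.7 and 29.1 CPM. The difference on the acetate diet of 0.27 (adjusted p = 0.591 by edgeR) became 0.01 without mouse 1.

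Tap1, the peptide transporter subunit, had, relative to its mean, the widest spread within a group of the 4 MHC class I genes. Tau acetate mice had 9.81, 2.36 and 4.37 CPM, so that the highest and the lowest of all 12 mice were in 1 group, and the other 9 mice lay between 3.81 and 6.20 CPM. The log2 difference of tau from PBS on the acetate diet was 0.12 (SE 0.39, adjusted p = 0.958 by edgeR) and turned to -0.63 (adjusted p = 0.472) without Tau acetate mouse 1.

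**Figure D3:**
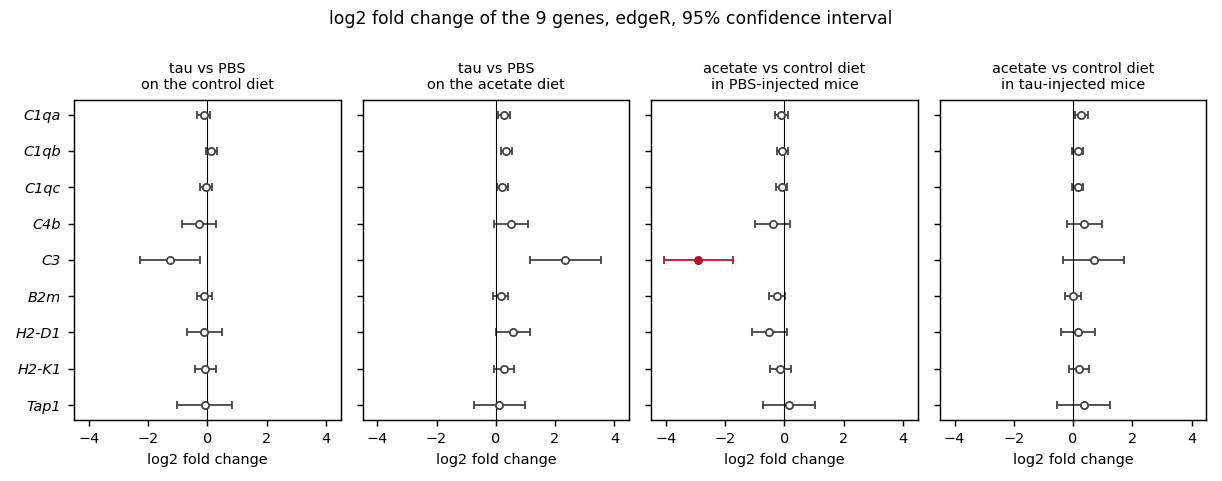
Log2 fold change (horizontal axes) of the 9 genes in the 4 comparisons of 2 groups, with 95% confidence intervals from edgeR. The filled red point is the only difference of the 36 called at an adjusted p below 0.1, C3 in PBS-injected mice at -2.90.

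Counted over the 9 genes, 1 was called for diet in PBS-injected mice, C3, where 8.84% of all genes tested were called by edgeR and 9.01% by DESeq2, which called C3 alone too (shares by DESeq2 are of the genes it gave an adjusted p). That share is near the background. The background itself changed with single libraries, from 1303 genes called by edgeR to 15 without PBS acetate mouse 2, 248 without PBS control mouse 3 and 315 without PBS acetate mouse 1. For the interaction 1 was called, again C3, against 1.56% of all genes by edgeR and 2.84% by DESeq2, and the 230 genes behind the first share became 8 without PBS acetate mouse 2 and 22 without Tau acetate mouse 1. For tau on the acetate diet edgeR called 0 of 9 against 0.136% of all genes. At an unadjusted p below 0.05, 5 of the 9 passed, C1qa, C1qb, C1qc, C3 and H2-D1, where 10.3% of all genes did, and DESeq2 called 2, C1qb and C3, where it called 0.804% of all genes. Without Tau acetate mouse 1, C1qa, C1qc and H2-D1 no longer passed (unadjusted p = 0.152, 0.242 and 0.160 by edgeR). C1qb and C3 still did (0.00847 and 0.00357), and Tap1 passed with the opposite sign (-0.63, unadjusted p = 0.0195 by edgeR). For tau on the control diet edgeR called 0 of 9 against 0.0136% of all genes, and DESeq2 called 0. C3 alone had an unadjusted p below 0.05, where 9.65% of all genes did. For diet in tau-injected mice edgeR called 0 of 9 against 0.0611%, and DESeq2 called 0 and gave no adjusted p for 3 of the 9. C1qa alone had an unadjusted p below 0.05, where 10.9% of all genes did. Averaged over both diets, tau had 0 of 9 called by edgeR against 0% of all genes, and 0 by DESeq2. C1qb had an unadjusted p below 0.05 (0.24, SE 0.06, adjusted p = 0.713 by edgeR), where 6.29% of all genes did. Averaged over both injections, acetate had 0 of 9 called by edgeR against 5.76%, and 1 by DESeq2, C3, against 8.44%. C3 alone had an unadjusted p below 0.05, where 18% of all genes did.

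By non-overlapping groups, 3 of the 9 were higher in Tau acetate than in PBS acetate mice, C1qa, C1qb and C3, where 16.2% of all genes did not overlap in either direction. C3 was the 1 gene without overlap in PBS acetate against PBS control mice, against 26.3% of all genes, and in Tau control against PBS control mice, against 13.5%. Between Tau acetate and Tau control mice 0 of the 9 did not overlap, against 14.4%. On the acetate diet all 9 log2 differences of tau from PBS were above 0, with a median of 0.27 beside a median of -0.0035 over all genes tested. Without Tau acetate mouse 1, 8 of 9 were above 0 with a median of 0.14. On the control diet 1 of 9 was above 0, with a median of -0.09. For acetate against control diet, the median was -0.13 in PBS-injected mice, with 1 of 9 above 0, and 0.20 in tau-injected mice, with 9 of 9 above 0, or 0.04 with 6 of 9 above 0 without Tau acetate mouse 1. These medians come from comparisons with shared mice.

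Tau acetate mouse 1 had the highest CPM of the 12 mice in 8 of the 9 genes, all except C3, while 8.78% of all genes tested were highest in that mouse. Relative to the median of the other 11 mice it stood at 1.26-fold to 1.39-fold for the C1q genes, 1.18-fold for B2m, 1.34-fold for H2-D1, 1.48-fold for H2-K1, 1.85-fold for C4b, 2.20-fold for Tap1 and 2.00-fold for C3. It was also highest in 13 of 33 other MHC class I pathway genes tested, against 5 of 31 other complement genes. Of these 13, the following were picked after their values were seen. Nlrc5, the transactivator of MHC class I promoters, was at 4.66 CPM in that mouse and at 0.474 to 1.45 CPM in the other 11. Psmb9 was at 3.52 CPM against 0.929 to 2.18, and Irf1, an interferon-regulated factor, at 12.9 CPM against 7.01 to 8.79. The chaperones Calr and Canx were near the low end in the same mouse, at 338 and 354 CPM.

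**Figure D4:**
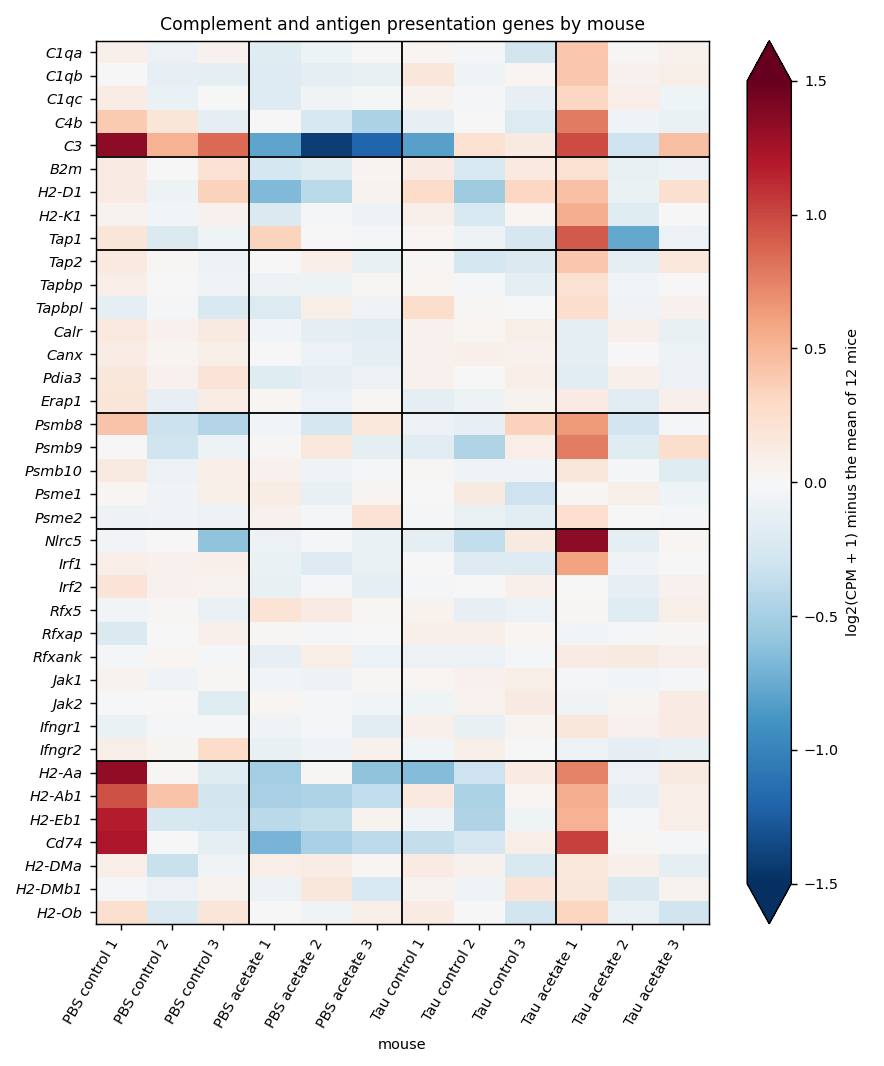
Colour gives log2(CPM + 1) minus the gene's mean over 12 mice, for the 9 genes and tested genes of peptide loading, the immunoproteasome, MHC class I regulators (all but 1) and MHC class II (blocks from top to bottom, with complement first and MHC class I second). The column of Tau acetate mouse 1 is high in the rows of B2m, H2-D1, H2-K1, Tap1, Psmb9, Irf1 and Nlrc5. PBS control mouse 1 is high in C3, H2-Aa, H2-Ab1, H2-Eb1 and Cd74, and Tau acetate mouse 1 is high in those rows too.

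Over the 12 mice, B2m and H2-D1 varied together, with a Pearson's r of 0.92 (permutation p = 4e-05) and a Spearman's rho of 0.96 (permutation p = 1e-05, the smallest that the permutations can give). All 36 pairs of the 9 genes were computed, and the p adjusted over these pairs was 0.00144 for that r and 0.00036 for that rho. The r was 0.85 without the 2 mice farthest from the median of B2m and 0.94 with the group means removed. H2-K1 varied with B2m at r = 0.77 (permutation p = 4e-04, adjusted 0.0048) and rho = 0.87 (permutation p = 0.00036, adjusted 0.00432), with r = 0.66 without the 2 farthest mice and 0.81 with the group means removed. H2-K1 and H2-D1 had r = 0.73 (permutation p = 0.003, adjusted 0.027) and rho = 0.90 (permutation p = 0.00022, adjusted 0.00396), and r = 0.60 without the 2 mice farthest from the median of H2-D1. Tap1 and B2m had r = 0.28 (permutation p = 0.403, adjusted 0.439) and rho = 0.14 (permutation p = 0.669, adjusted 0.803). Tap1 and H2-K1 had r = 0.65 (permutation p = 0.0453, adjusted 0.104) and rho = 0.36 (permutation p = 0.258, adjusted 0.416), and r = 0.15 without Tau acetate mouse 1.

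Among the complement genes, C1qa and C1qc had r = 0.90 (permutation p = 0.00023, adjusted 0.00414) and rho = 0.82 (permutation p = 0.00214, adjusted 0.0193). Their r was 0.79 without the 2 mice farthest from the median of C1qa and 0.77 without Tau acetate mouse 1. C1qb and C1qc had r = 0.77 (permutation p = 0.00547, adjusted 0.0394) and rho = 0.54 (permutation p = 0.0751, adjusted 0.246). Their r was 0.42 without the 2 mice farthest from the median of C1qb, 0.49 without Tau acetate mouse 1 and 0.76 with the group means removed. Leaving out the farthest mice narrows the range of C1qb, so the lower r cannot show whether the relation rested on them. C3 and C4b had r = 0.68 (permutation p = 0.0121, adjusted 0.0620) and rho = 0.69 (permutation p = 0.0152, adjusted 0.110), with r = 0.55 without the 2 mice farthest from the median of C3. All 36 r were above 0, with a median of 0.52, and 5 had an adjusted p below 0.05. Without Tau acetate mouse 1 the median was 0.25 and 8 of the 36 were below 0, whereas B2m and H2-D1 had r = 0.91, B2m and H2-K1 r = 0.84 and H2-D1 and H2-K1 r = 0.82. The points share libraries.

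**Figure D5:**
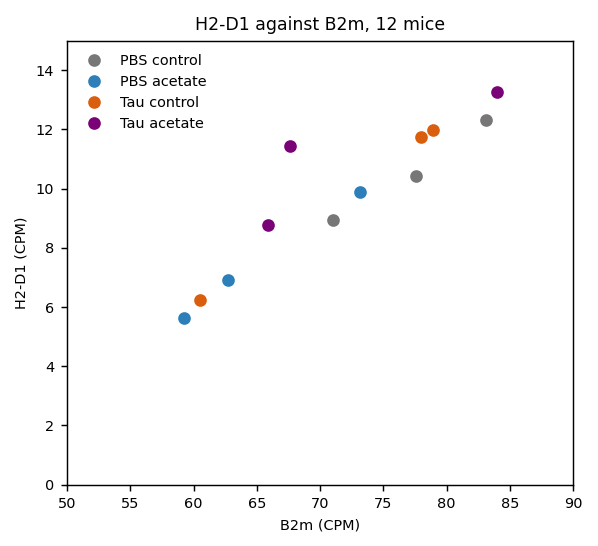
H2-D1 against B2m, both in CPM, 1 point per mouse and 1 colour per group (the horizontal axis starts at 50). The points run from 59.2 and 5.62 CPM in a PBS acetate mouse to 84.0 and 13.3 CPM in a Tau acetate mouse, and each group spans much of the range.

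The other genes of both pathways were taken as lists of 51 complement genes, of which 31 were tested, and 48 MHC class I genes, of which 33 were tested. Among the complement genes, edgeR called 0 of 31 for tau on the control diet and 0 of 31 for tau on the acetate diet. DESeq2 called 1 and 0 of them, against 86 of 12398 and 121 of 15059 genes. At an unadjusted p below 0.05 there were 4 and 3 of the 31, against 9.65% and 10.3% of all genes. The median log2 difference of the 31 was 0.03 on the acetate diet, or 0.02 without Tau acetate mouse 1. For diet in PBS-injected mice 3 were higher and 0 lower, all from the 17 tested inhibitors and related proteins. This is close to the 8.84% of all genes called in that comparison, and without PBS acetate mouse 2 none of the 3 was called by edgeR. Cd46, a membrane cofactor that inactivates C3b, was at 0.59 on the log2 scale (SE 0.19, adjusted p = 0.0844 by edgeR and 0.123 by DESeq2). Sez6 and Csmd1, neuronal proteins with complement control domains, were at 0.45 (SE 0.10, adjusted p = 0.0346 by edgeR) and 0.22 (SE 0.07, adjusted p = 0.0763). The neuron markers Snap25 and Slc17a7 were lower in the same comparison, at -0.40 and -0.22, while 3 of 4 CA1 markers were higher and 3 of 4 CA3 markers lower, and their part in these differences was not tested. Averaged over both injections, C4bp, the C4b binding protein, fell by 1.67 on the log2 scale on the acetate diet (SE 0.41, adjusted p = 0.0389 by edgeR), though at no more than 1.13 CPM in any mouse. Cd46 rose by 0.46 (SE 0.14, adjusted p = 0.0794 by edgeR) and Clu, the abundant complement inhibitor clusterin, by 0.11 (SE 0.03, adjusted p = 0.0714 by edgeR).

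None of the 6 tested complement receptors was called by edgeR or DESeq2 in the 7 comparisons. In 3 of these 1 receptor had an unadjusted p below 0.05. They were tau on the control diet, diet in tau-injected mice and the interaction, where 9.65%, 10.9% and 13% of all genes did. C3ar1, the receptor of the C3a fragment, had log2 differences of -0.82 for tau on the control diet (SE 0.31, adjusted p = 0.404 by edgeR) and 0.91 for acetate in tau-injected mice (SE 0.31, adjusted p = 0.292). Itgam, the alpha chain of complement receptor 3 on microglia, was at 0.14 for tau on the acetate diet (SE 0.10, adjusted p = 0.657 by edgeR), and at 0.04 without Tau acetate mouse 1. Of the 13 genes that start the classical or lectin pathway beside the members, 6 were tested and 0 called, among them C1ra with -0.59 for diet in PBS-injected mice (SE 0.36, adjusted p = 0.373 by edgeR). Of 10 alternative and terminal pathway genes, 2 were tested, C8g and Cfp, with 1.22 and -0.03 in the same comparison (adjusted p = 0.121 and 0.942 by edgeR). Cfb, C6, C7 and the C8 alpha and beta chains were among those too low to test.

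Of the 33 MHC class I genes, edgeR and DESeq2 called 0 for tau on the acetate diet and 0 for tau on the control diet. At an unadjusted p below 0.05 there were 4 and 0 of the 33, against 10.3% and 9.65% of all genes. Medians of the 33 were 0.07 and -0.01 on the log2 scale, and the first was 0.03 without Tau acetate mouse 1. Irf1 had 0.40 on the acetate diet (adjusted p = 0.405 by edgeR), and 0.12 without that mouse.

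Of the 7 tested peptide loading genes beside Tap1, 3 were lower on the acetate diet in PBS-injected mice, against 0 higher, where 715 of all genes tested were called lower and 588 higher (8.84% in all). None of the 3 was called by edgeR without PBS acetate mouse 2. These were chaperones of the endoplasmic reticulum that serve glycoproteins in general. Pdia3 fell by 0.28 on the log2 scale (SE 0.06, adjusted p = 0.0243 by edgeR), from 199 to 218 CPM in PBS control mice to 168 to 179 CPM in PBS acetate mice. Calr fell by 0.23 (SE 0.06, adjusted p = 0.0349 by edgeR) and Canx by 0.15 (SE 0.05, adjusted p = 0.0835 by edgeR). The same 3 were lower averaged over both injections, by between -0.15 and -0.19, with adjusted p of 0.0229 to 0.0309 by edgeR, where 5.76% of all genes were called. Tap2, the partner of Tap1 in the transporter, was at 0.34 for acetate in tau-injected mice (SE 0.14, adjusted p = 0.394 by edgeR) and Tapbp, tapasin, at 0.13 for tau on the acetate diet (SE 0.09, adjusted p = 0.656). Without Tau acetate mouse 1 these were 0.19 and 0.04.

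None of the 10 tested heavy chains of other class I and class I-like molecules, none of the 5 immunoproteasome genes and 1 of 11 regulators was called in any of the 7 comparisons. That 1 was Ifngr2, a chain of the interferon gamma receptor, which fell by 0.16 on the acetate diet averaged over both injections (SE 0.05, adjusted p = 0.0824 by edgeR, and 0.118 without Tau acetate mouse 1). Psmb9 was at 0.80 for acetate in tau-injected mice (SE 0.34, adjusted p = 0.410 by edgeR) and H2-T23 at 0.40 for tau on the acetate diet (SE 0.20, adjusted p = 0.491 by edgeR). Without Tau acetate mouse 1 these were 0.37 and 0.12. The 7 receptors of class I molecules were all too low to test. Of 7 tested MHC class II genes, H2-Ab1 was lower on the acetate diet in PBS-injected mice, at 2.79, 1.62 and 0.609 CPM against 0.388, 0.413 and 0.511 CPM. It fell by 1.95 on the log2 scale (SE 0.53, adjusted p = 0.0506 by edgeR), and by 1.31 with an adjusted p of 0.223 without PBS control mouse 1. Cd74, the invariant chain, picked after its values were seen, was at 7.10, 2.47 and 2.17 CPM against 1.16 to 1.66 CPM in the same groups (-1.47, adjusted p = 0.135 by edgeR). PBS control mouse 1 was the highest of the 12 in C3, H2-Ab1 and Cd74.

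The genes whose log2 CPM over the 12 mice was most like that of each member, out of all other genes tested, are given as a description. C1qb was closest to Rnf213 (Pearson's r = 0.92) and Gbp3 (0.89), C1qa to Hs1bp3 (0.92) and Ifit1 (0.92), and C1qc to Irgm1 (0.90) and Lrp10 (0.89). Rnf213, Gbp3, Ifit1 and Irgm1 are interferon-induced genes, and Rnf213 lay between 13.3 and 33.0 CPM. C3 was closest to 1700007K13Rik (0.92) and Tm4sf1 (0.91), and C4b to 5031439G07Rik (0.93) and Msn (0.91). B2m was closest to Prrt2 (0.94) and Slc2a6 (0.94), H2-D1 to Cap1 (0.91) and Acvr1 (0.90), H2-K1 to Ctss (0.92), a lysosomal protease of microglia, and Gamt (0.90), and Tap1 to Grwd1 (0.93) and Ccdc88b (0.91). Each is the top of 14742 genes over 12 libraries that share depth and cell makeup. Tau acetate mouse 1 was highest in 8 of the 9 members, and these r were not computed without it.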

How the data were processed

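Alignment by the authors used STAR 2.5.2a and GRCm38, and exon reads on the reverse strand were summed by gene with HTSeq 0.9.1. They deposited raw counts for 24985 genes and 12 mice, without normalization. Totals of 12983233 to 20218340 per mouse limit precision for genes of few counts such as C3, and the common biological coefficient of variation was 7.25%. Genes were filtered with filterByExpr (minimum count 10, minimum total 15), normalized by TMM and tested with edgeR 4.0.16 (robust quasi-likelihood F test, all 12 mice, 8 residual degrees of freedom) in R 4.3.3, with Benjamini-Hochberg adjustment over 14742 genes and calls below 0.1. The SE was the log2 fold change over the root of F. As a second tool DESeq2 1.42.0 was run, and a missing adjusted p of it was not counted as a call. In the fits to all 12 mice the p-values rest on the spread between the 3 mice of each group, pooled over the 4 groups. A wide group thus also enters comparisons that do not use it. The SE of C4b for tau on the control diet was 0.257, and 0.145 without Tau acetate mouse 1. Correlations used log2 CPM (prior count 2) and 100000 permutations (Python 3.11.15). Alternatives were other size factors, no filter, a threshold of 0.05, the 6 compared mice, a replicate block and each mouse left out. Scripts were tested on simulated data. Exon lengths came from GENCODE M21 and promoters from RefSeq.

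The members and gene lists were chosen with earlier results of these data known. Genes named were the members, list genes past the threshold (at most 4 per list and comparison, otherwise up to 2 of smallest p), defining cell type markers and the 2 genes most like each member, besides those said to be picked after their values were seen. The values of 1 regulator are not reported here, and the study's other experiments were not analysed here.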

Additional observations from a re-analysis of the deposited data

Results flagged for a closer look

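Among the members, the pathway lists and the cell type markers, the effect of the diet differed between PBS-injected and tau-injected mice for 3 genes by edgeR's interaction test, by which 1.56% of all genes tested were called. C3 had an interaction of 3.60 on the log2 scale (SE 0.70, adjusted p = 0.0634), with the diet difference at -2.90 in PBS-injected and 0.70 in tau-injected mice (0.26 without Tau acetate mouse 1). Folr1, a choroid plexus marker, had 2.92 (SE 0.71, adjusted p = 0.0755). Aqp4, the water channel of astrocytes, had 0.35 (SE 0.09, adjusted p = 0.0755), with 149, 174 and 149 CPM in PBS control, 143, 133 and 135 CPM in PBS acetate, 156, 145 and 142 CPM in Tau control and 163, 160 and 169 CPM in Tau acetate mice. Without Tau acetate mouse 1 none of the 3 passed the threshold by edgeR (adjusted p = 0.131 for C3, 0.148 for Folr1 and 0.167 for Aqp4), and C3 did not pass it either without PBS acetate mouse 2 or 3 or Tau control mouse 2, or at an adjusted p below 0.05.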

How the results depend on the processing

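No difference named here changed sign under DESeq2's size factors, no filter, DESeq2, the compared mice alone, the replicate block or any mouse left out, among members at an unadjusted p below 0.05 and called list genes, whereas Tap1 for tau on the acetate diet went from 0.12 to -0.63 without Tau acetate mouse 1. The number of members called moved as follows. For tau on the control diet it was 0, and 1 (C3) by DESeq2 on the 6 compared mice, which called 170 of 13415 genes. For tau on the acetate diet it was 0, but 1 (C1qb) with no filter and 2 (C1qb and C3) by DESeq2 on 12 or on 6 mice, and 0 to 2 with each mouse left out. Over all genes these fits called 37 of 19628 with no filter, 121 of 15059 and 135 of 15411 by DESeq2 on 12 and on 6 mice, and 0 to 93 with each mouse left out. For diet in PBS-injected mice it was 1, but 2 (B2m and C3) on the 6 compared mice by edgeR or DESeq2, and 0 to 1 with each mouse left out. Over all genes these fits called 1537 of 14445 by edgeR and 1229 of 15329 by DESeq2 on the 6 mice, and 15 to 1425 with each mouse left out. For the interaction it was 1, but 0 at an adjusted p below 0.05, and 0 to 1 with each mouse left out. Over all genes the calls were 43 of 14742 at 0.05, and 8 to 442 with each mouse left out. For acetate averaged over injections it was 0, but 1 (C3) by DESeq2, and 0 to 1 with each mouse left out. Over all genes the calls were 1046 of 12398 by DESeq2, and 221 to 1092 with each mouse left out. The C3 difference for diet in PBS-injected mice lay between -3.29 and -2.60 over the 12 fits. The cause of these changes was not tested. Of 18 pairs of same-numbered mice in different groups, 2 had deviations correlated above 0.1 (range -0.105 to 0.144), so the numbers do not pair the mice. With the replicate number as a block the members called were 0 and 0 for tau on the control and the acetate diet, 1 and 0 for diet in PBS-injected and tau-injected mice, 1 for the interaction and 0 for both averages. Among list genes, Cd46 (adjusted p = 0.104) and Canx (adjusted p = 0.111) for diet in PBS-injected mice, and Cd46 (0.102) and Clu (0.110) averaged over injections, passed no threshold under the block by edgeR. Over all genes DESeq2 called 86, 121, 176, 438 and 7, against 2, 20, 9, 230 and 0 by edgeR, for tau on the control diet, tau on the acetate diet, diet in tau-injected mice, the interaction and tau averaged over diets. The block gave 9 for the first of these, 349 for the interaction and 1224 for diet in PBS-injected mice. The low counts of C3, 12 to 171 reads per mouse, limit what smaller differences could be seen.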
